A study of Mus musculus with 13 samples.

Results

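The RNA described here was the input of an RNA pull-down experiment: total RNA of MA-10 cells, sequenced without any pull-down. MA-10 is a steroid-making line grown from a mouse Leydig cell tumour. The libraries were taken by their titles, IPT_1 to IPT_4, here libraries 1 to 4. They are 4 of the 13 samples of the series, and the other 9 are not analysed here. The study as a whole asked which RNAs are bound by dAKAP1, whose KH and Tudor domains bind RNA and which tethers protein kinase A to the outer face of mitochondria, and the input shows what there was to be bound.

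All 4 libraries came from 1 line that is labelled untreated and with no genetic change named, and was grown in RPMI medium with horse serum. A line is a single clone of tumour cells, without the Sertoli, germ and vessel cells that surround Leydig cells in a testis. Nothing in the labels says that the 4 libraries came from separate cultures, so their spread may be technical. The labels' protocol and description name total RNA from which ribosomal RNA was depleted, while the molecule field names polyA RNA.

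Leydig cells lie between the tubules of the testis and make androgens. Luteinizing hormone binds its receptor Lhcgr and raises cAMP, which activates protein kinase A. The protein Star then moves cholesterol to the inner mitochondrial membrane, where Cyp11a1 cuts off its side chain to make pregnenolone, and Hsd3b enzymes turn that into progesterone. The nuclear receptor Nr5a1, also named steroidogenic factor 1, switches on most genes of this route. MA-10 cells are known for making progesterone rather than testosterone.

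The deposited table gives estimated counts for 27071 genes. Library totals were 3085423, 2581521, 2487679 and 3052026 counts. A set of 10 features, chief among them Lars2 and the unnamed model CT010467.1, overlaps ribosomal RNA sequence and collected 28.0%, 35.2%, 33.0% and 24.99% of the counts. All levels below are counts per 1000000 (CPM) of the counts outside these 10 features, which numbered 2221454, 1672802, 1666384 and 2289258. CPM is a share of reads, so a long transcript reaches a higher CPM than a short one at the same number of molecules. Unless said otherwise a level is a mean ± SD over the 4 libraries, and values in a row are given in the order of libraries 1 to 4.

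Library 1 stood apart from the others. Over the 9738 genes that averaged 10 CPM or more, the Pearson correlation of log2 CPM, taken across genes, was 0.839 to 0.873 for library 1 with each other library and 0.909 to 0.946 among libraries 2, 3 and 4. Between 12.01% and 12.7% of these genes differed more than 2-fold between library 1 and another library, against 3.03% to 6.04% for the other pairs. The first principal component held 57.6% of the variance and set library 1 on one side. No pair of libraries agreed within sampling noise (chi-square per degree of freedom at least 3.797), so none was a copy of another. Means without library 1 are given where it decides a value, and the genes that set it apart are described further on.

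The classes of RNA kept nearly the same shares in all libraries. Protein-coding genes other than ribosomal protein and histone genes held 76.2% ± 1.76 of the counts outside the ribosomal RNA features. Small structural RNAs held 5.74% ± 0.594, long noncoding RNAs and microRNA loci 2.52% ± 0.315, and ribosomal protein genes 2.36% ± 0.289. The 13 mitochondrial messengers held 1.59% ± 0.113 and the 2 mitochondrial ribosomal RNAs 1.87% ± 0.0472. Replication-dependent histone genes, whose messengers end in a stem-loop and not in a polyA tail, held 0.868% ± 0.0699. Of their 66 genes 61 reached 1 CPM in every library, beside 69.1% of all protein-coding genes. Pseudogenes held 6.48% in library 3 and 2.36% to 3.01% in the others. The surplus in library 3 was mainly the unnamed pseudogene Gm19220, at 11634, 10297, 49655 and 15069 CPM.

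**Figure D1:**
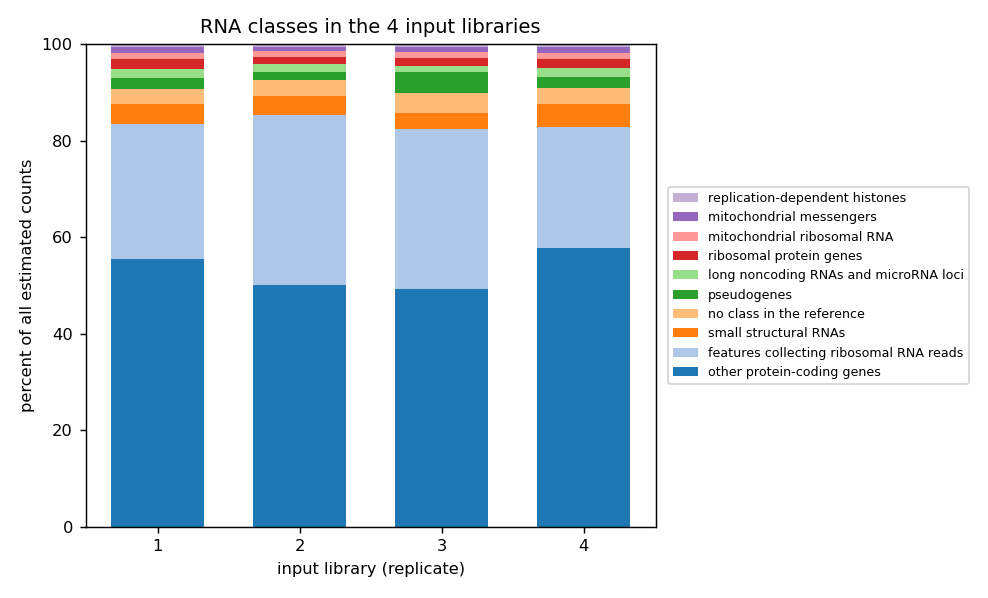
Share of all estimated counts (y axis, percent) held by each class of RNA in the 4 input libraries (x axis), as stacked bars. Protein-coding genes and the features that collect ribosomal RNA reads fill most of each bar, the latter 24.99% to 35.2%, and pseudogenes are thickest in library 3.

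The most abundant noncoding RNAs were those of basic cell machinery. The 7SL RNA, the scaffold of the signal recognition particle that guides secreted proteins to the endoplasmic reticulum, gave 16275, 17325, 15127 and 19531 CPM at Rn7s1. The second copy, Rn7s2, had the same count in each library, so reads were shared out between the copies, and neither copy's own level is known. Rn7sk, the 7SK RNA that holds the elongation factor P-TEFb inactive, stood at 16355, 16105, 12366 and 17251 CPM, lowest in library 3. The RNA of RNase P, Rpph1, stood at 4275 ± 361 CPM and its relative Rmrp at 2347 ± 358 CPM. These 3 genes have no introns, so their levels can be set per kilobase: 46745 ± 6502 for Rn7sk, 13153 ± 1111 for Rpph1 and 8534 ± 1303 for Rmrp. Each step in this order was larger than the spread between libraries. The spliceosomal Rnu1a1, at 11.4 CPM, and the other small nuclear and small nucleolar RNAs on the list stayed under 100 CPM.

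Among long noncoding RNAs, the nuclear Malat1 led with 9528 ± 1939 CPM. Neat1, the scaffold of paraspeckles, had 1552, 3579, 1900 and 3963 CPM, high in libraries 2 and 4 and low in 1 and 3. Rian and Meg3, both from the imprinted Dlk1-Meg3 region of chromosome 12, reached 605 ± 107 and 331 ± 54.5 CPM. Of 36 listed long noncoding RNAs with a row in the table, 28 were at 1 CPM or more in every library, beside 46.0% of all genes. Xist, the RNA of the silenced X chromosome, had 0, 2, 3 and 0 counts, and its antisense Tsix had none. Of 5 genes of the Y chromosome, only Kdm5d reached 1 CPM in every library, with a mean of 7.70 CPM. Ddx3y and Sry had no count in any of the 4 libraries.

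Translation, cytoskeleton and protein folding led the messengers. Among nuclear protein-coding genes, with unnamed models left out, the elongation factor Eef1a1 had the highest share, at 3834, 4531, 4475 and 4592 CPM. Beta-actin, Actb, followed at 1878, 3852, 3464 and 3564 CPM. Eef1a1 was steadier, with a CV of 8.09% against 27.9% for Actb, and both were lowest in library 1.

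The chaperones Hspa8, Hsp90ab1 and Hsp90aa1 were among the 15 most abundant, at 1712 ± 684, 1583 ± 463 and 1176 ± 226 CPM. Library 1 lay below the others for all of them, for example 689 CPM of Hspa8 against 1992 to 2133. Hspa5, the chaperone of the endoplasmic reticulum, went the other way, with 2435 CPM in library 1 and 909 to 1422 in the rest. It did not stand for its list, the unfolded protein response of that compartment. Of these 18 genes 10 were lowest in library 1 and 4 highest. Of all genes averaging 10 CPM or more, 30.04% were lowest there and 36.7% highest. Tubulin Tuba1b (1699 ± 341 CPM), the ferritin light chain Ftl1 (1498 ± 61.2), the ribosomal stalk protein Rplp0 (1408 ± 162) and the elongation factor Eef2 (1385 ± 149) belonged to the same 15.

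Others among the 15 bear less on housekeeping. Scd2, a desaturase that makes monounsaturated fatty acids, had 2108 ± 230 CPM. Syne2, which codes for a giant protein of the nuclear envelope, had 1864 ± 301 CPM, and its length adds to that share of reads. Grip2, a scaffold protein known from synapses, had 607, 661, 2838 and 857 CPM. It was high in library 3, where Gm19220 and the unnamed model Gm26822 (3265, 3510, 15509 and 4610 CPM) were also high. Whether reads of 1 kind reached all 3 features was not tested.

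Reads were spread over many genes. The 10 most abundant features held 12.8% to 16.8% of the counts outside the ribosomal RNA set, the top 100 held 25.4% ± 1.92, and between 801 and 994 genes made up the first 50%. In all 4 libraries 12443 of 27061 genes (46.0%) reached 1 CPM, and 10648 of 15409 protein-coding genes (69.1%) did. Only 1666 genes reached 100 CPM in every library and 32 reached 1000 CPM.

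The mitochondrial genome was read from end to end. All 13 messengers have no introns and come from long transcripts that are cut into single RNAs, so they can be ranked per kilobase. mt-Co1, a core subunit of cytochrome oxidase, led with 4573 ± 233 CPM per kilobase, a level of 7356, 6539, 7180 and 7188 CPM. mt-Atp8 followed at 3419 ± 396 per kilobase, then mt-Atp6 at 2282 ± 182 and mt-Nd1 at 1792 ± 395. The first 2 steps exceeded the spread, while mt-Atp6 and mt-Nd1 were closer than their SDs together. mt-Atp8 and mt-Atp6 overlap and share 1 messenger, so their counts depend on how reads of the pair were divided. The middle of the order, with mt-Co3 at 1205 ± 396, mt-Nd3 at 1186 ± 429 and mt-Cytb at 1109 ± 167, cannot be ranked beyond the spread.

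mt-Nd6, the only messenger read from the other strand, had 203 ± 21.2 CPM per kilobase. It was among the lowest. mt-Co2 fell outside the pattern of its neighbours on the same transcript, with 240, 35.9, 33.6 and 221 CPM: libraries 2 and 3 were low and libraries 1 and 4 high. mt-Co3 split the libraries the same way (1308, 667, 706 and 1096 CPM), while mt-Co1 and mt-Atp6 did not. Whether reads of mt-Co2 or other messengers were divided with features of like sequence outside the mitochondrial genome was not tested. The ribosomal RNAs mt-Rnr2 and mt-Rnr1 were steady, at 9829 ± 233 and 3283 ± 148 CPM per kilobase.

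The 3 genes taken as markers of steroid-making cells, Nr5a1, Cyp11a1 and Star, were read in every library. Nr5a1 (chromosome 2, 38692656 to 38714542 in the mouse build GRCm38) had 732, 903, 658 and 936 CPM from 1097 to 2143 counts a library. It ranked 52 of 15409 protein-coding genes by CPM, unnamed models included, above every other member of the lists of steroid enzymes, their regulators and Leydig cell markers. Cyp11a1 (chromosome 9, 57998024 to 58027031) had 107, 530, 350 and 566 CPM, low in library 1 and at 482 CPM on average without it. Star (chromosome 8, 25808474 to 25815982) had 120, 112, 251 and 241 CPM, low in libraries 1 and 2. The CV between libraries was 16.5% for Nr5a1, 41.7% for Star and 54.0% for Cyp11a1.

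Of the 18 genes of the steroid route with a row in the table, 15 reached 1 CPM in every library (83.3%, against 69.1% of all protein-coding genes). The electron chain that serves Cyp11a1 was read at ferredoxin Fdx1, with 119, 320, 334 and 456 CPM, and at its reductase Fdxr, with 150, 207, 185 and 174 CPM. Por, the reductase for P450 enzymes of the endoplasmic reticulum, had 329, 441, 449 and 446 CPM. Library 1 was the lowest for all 3. Dbi, which binds acyl-CoA and the outer membrane protein Tspo, had 352 ± 64.2 CPM, Tspo itself 140.1 ± 31.2 and the channel Vdac1 140.4 ± 6.97.

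Among enzymes downstream of pregnenolone, some were hardly read. Hsd3b1 had 131, 99.8, 148 and 71.6 CPM and its close copy Hsd3b6 40.5, 15.5, 27.6 and 15.3, and reads of such copies may have been divided between them. Cyp17a1, whose product opens the way to androgens, had 25.2, 99.8, 61.8 and 130.2 CPM, lowest in library 1. Hsd17b3, which makes testosterone in adult Leydig cells, had 2 counts in library 4 and none elsewhere, below the 3 counts that a count of 0 allows in a library. Srd5a1, which reduces testosterone and progesterone, had 70.5 ± 25.8 CPM. Akr1c18, which inactivates progesterone, had 2, 0, 0 and 2 counts. Akr1b7, which detoxifies isocaproaldehyde from the side chain of cholesterol, had 103 counts (46.4 CPM) in library 1 and 0, 1 and 3 in the others. Its mean of 12.1 CPM thus rests on library 1, and without that library it was 0.637 CPM.

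**Figure D2:**
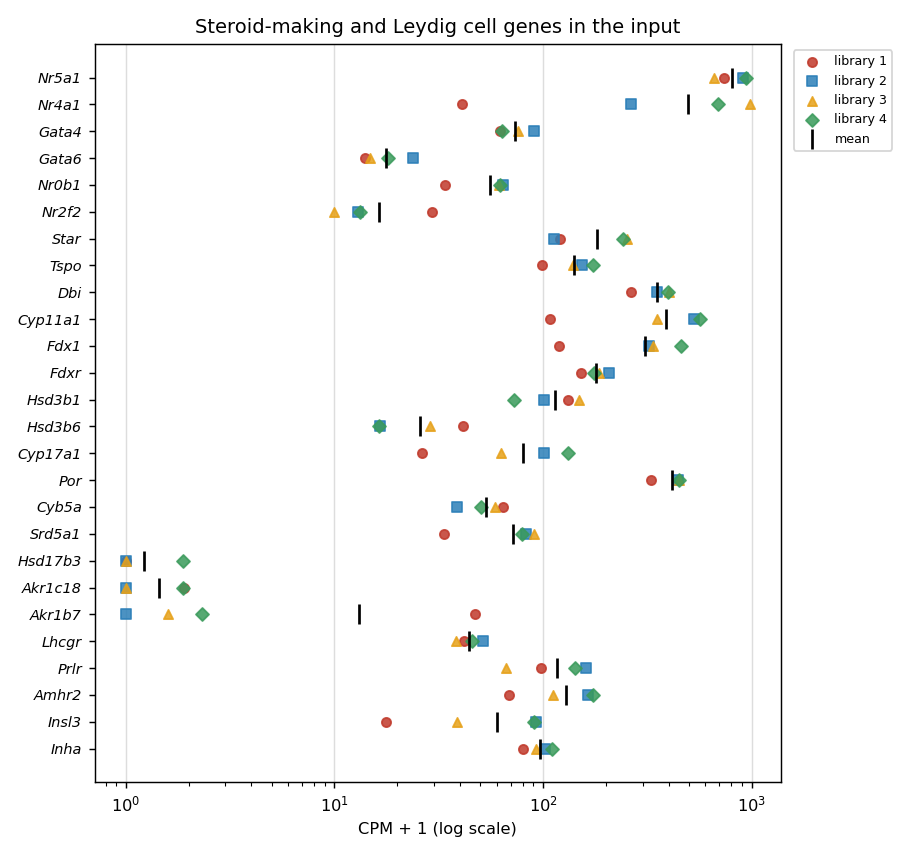
Level of 26 genes of steroid-making and Leydig cells (rows) in CPM + 1 on a log axis, with 1 point for each of the 4 input libraries and a bar for the mean. Nr5a1 has the mean furthest right and its 4 points close together, Nr4a1 and Akr1b7 are spread widest, and Hsd17b3 and Akr1c18 sit near 1, where no count falls.

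Among the regulators, 14 of 18 genes (77.8%) reached 1 CPM in every library, beside 69.1% of all protein-coding genes. Nr4a1, a nuclear receptor that cAMP induces within minutes, was the least steady, with 40.1, 264, 976 and 688 CPM, a 24.4-fold range. Gata4, a partner of Nr5a1, had 72.1 ± 13.3 CPM and Gata6 16.7 ± 4.40. Nr0b1, which represses Nr5a1 targets, had 32.9 CPM in library 1 and 60.6 to 63.4 in the others. Nr2f2, a regulator of fetal and progenitor Leydig cells, went the opposite way, with 28.4 CPM in library 1 and 9.002 to 12.2 in the others. Cebpb and Creb1 had 50.6 and 57.8 CPM. Wt1 and Lhx9, regulators of the early gonad, and Nr5a2, the close relative of Nr5a1, stayed under 1 CPM on average.

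Of 24 Leydig cell markers with a row, 15 (62.5%) reached 1 CPM in every library, beside 69.1% of all protein-coding genes. The receptor Lhcgr had 41.0, 50.8, 37.2 and 44.6 CPM and was steady (CV 13.4%). Insl3, the peptide hormone of mature Leydig cells, had 16.7, 91.5, 37.8 and 89.5 CPM, high in libraries 2 and 4. The prolactin receptor Prlr (96.3, 160, 65.4 and 141 CPM) and the receptor for anti-Mullerian hormone Amhr2 (67.5, 163, 111 and 172 CPM) were high in the same 2 libraries. The glutathione transferase Gstm2 was at 221 ± 21.7 CPM and the inhibin subunit Inha at 95.4 ± 13.2. None of the 12 markers averaging 10 CPM or more was highest in library 1, and 9 were lowest there, beside 30.04% of all genes at that level that were lowest in library 1. Igf1 and Nes, a growth factor and a filament of stem Leydig cells, had no count in the input, which allows up to 0.382 CPM over the pooled libraries.

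Promoters of identity genes are printed because nuclear receptors of the Nr5a1 kind bind the letters AGGTCA. The RefSeq promoter table (GRCm38.p6, 250 bases before to 50 after a start) had 15455 promoters of 12312 protein-coding genes of the input, and 16 promoters of 13 genes of the steroid route. Searched on both strands, AGGTCA was in 5 of those 16 (31.3%), in 6 of 25 promoters of Leydig cell markers (24.0%) and in 13.6% of all. The 5 were promoters of Cyp11a1, Vdac1 (at both its starts), Akr1b7 and Akr1c18, the last gene at 0.443 CPM. The match did not go with a high level. AGGTCA was in 20.8% of promoters of genes with no count and in 12.4% at 100 CPM or more. The longer CAAGGTCA, which holds these letters, was in none of the 16, in 1 of the 25, that of Amhr2, and in 1.20% of all. A match describes letters and not binding. AGGTCA is in capitals in 4 promoters, each 5′ to 3′ on the gene's strand.
Cyp11a1, plus strand, chr9:58014702-58015001, the second of 2 starts and inside the gene as annotated: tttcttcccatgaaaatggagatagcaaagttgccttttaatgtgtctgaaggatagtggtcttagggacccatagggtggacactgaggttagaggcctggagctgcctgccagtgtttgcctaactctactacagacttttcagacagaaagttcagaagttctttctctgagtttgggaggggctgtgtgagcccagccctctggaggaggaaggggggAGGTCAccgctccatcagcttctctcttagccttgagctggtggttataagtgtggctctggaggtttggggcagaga
Lhcgr, minus strand, chr17:88791965-88792264: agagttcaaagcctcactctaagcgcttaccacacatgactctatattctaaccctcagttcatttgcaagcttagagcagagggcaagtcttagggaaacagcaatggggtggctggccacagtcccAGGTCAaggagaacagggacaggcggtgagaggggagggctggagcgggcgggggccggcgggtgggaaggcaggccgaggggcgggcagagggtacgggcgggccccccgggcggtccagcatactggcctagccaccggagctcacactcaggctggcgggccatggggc
Nr0b1, plus strand, chrX:86191525-86191824: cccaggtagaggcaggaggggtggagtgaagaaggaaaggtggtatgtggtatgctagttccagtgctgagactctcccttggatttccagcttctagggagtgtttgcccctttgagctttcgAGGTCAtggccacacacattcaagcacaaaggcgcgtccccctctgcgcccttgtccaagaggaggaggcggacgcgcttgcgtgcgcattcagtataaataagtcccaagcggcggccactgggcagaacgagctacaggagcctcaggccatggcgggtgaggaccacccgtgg
Amhr2, plus strand, chr15:102445117-102445416: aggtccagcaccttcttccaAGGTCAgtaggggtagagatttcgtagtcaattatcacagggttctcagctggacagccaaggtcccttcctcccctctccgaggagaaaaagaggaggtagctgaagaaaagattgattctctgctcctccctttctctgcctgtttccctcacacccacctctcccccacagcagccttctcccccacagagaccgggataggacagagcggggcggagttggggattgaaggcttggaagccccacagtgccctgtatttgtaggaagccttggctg
AGGTCA begins 28 bases before the start in Cyp11a1, 122 in Lhcgr, 126 in Nr0b1 and 230 in Amhr2. Its gene's level in the input differed between them, from 43.4 ± 5.79 CPM for Lhcgr to 388 ± 210 for Cyp11a1.

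The supply of cholesterol, the raw material of steroids, was read at every step. All 24 genes of cholesterol synthesis reached 1 CPM in every library, beside 69.1% of all protein-coding genes. Their median was 144 CPM. Hmgcs1 led with 352, 738, 667 and 806 CPM. The methyl sterol oxidase gene Msmo1 had 297, 512, 502 and 513 CPM. The mean of libraries 2 to 4 was 2.09-fold that of library 1 for Hmgcs1 and 1.72-fold for Msmo1, and 22 of the 24 synthesis genes were lowest there, beside 30.04% of all genes averaging 10 CPM or more. The high-density lipoprotein receptor Scarb1 was highest in library 1, with 117, 41.2, 75.6 and 57.2 CPM. Apoe, which carries cholesterol, and the exporter Abca1 had 1017 ± 106 and 763 ± 71.9 CPM.

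Genes of cAMP signalling had a steady sum, 1845 ± 44.6 CPM, but single members were no steadier than other genes. The median CV was 20.6% for the 18 members averaging 10 CPM or more and 20.3% for all genes at that level. The stimulatory G protein Gnas (308 CPM) and the kinase A subunits Prkar1a (305) and Prkaca (229) had the largest shares of reads in the group. The anchor genes Akap13 (202) and Akap1 (157) were also among the largest. Akap1, the gene of the protein the study used, had 158, 150.0, 171 and 149 CPM (CV 6.57%). Sod2, a mitochondrial superoxide dismutase whose messenger is a reported ligand of dAKAP1, had 68.4, 111, 97.8 and 120 CPM, lowest in library 1.

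The input bore the marks of dividing cells. Of 24 proliferation genes, the highest were Mki67 (972 ± 92.3 CPM) and Top2a (583). In every library 23 of the 24 reached 1 CPM, beside 69.1% of all protein-coding genes. The exception was the cyclin Ccnd2, at 0.821 CPM. Myc had 230 CPM on average (224, 204, 280.2 and 211), Cdkn2a, which codes for inhibitors of the cell cycle, had 111 ± 21.2, and Mycl had no count. Glycolysis was led by Gapdh, at 673, 1221, 849 and 933 CPM, with a CV of 24.9%, and by Eno1 and Pgam1. All 21 antioxidant genes, led by Prdx1 and Gpx4, reached 1 CPM in every library, beside the same 69.1%.

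Few markers of other cell types stood out, where 69.1% of all protein-coding genes reached 1 CPM in every library. Markers of leukocytes were at 1 CPM in every library for 0 of 8 genes with a row, and their sum was 1.20 to 13.1 CPM. For germ cells it was 2 of 8 genes with a sum of 12.002 to 21.6 CPM, with Ddx4 at 10.2 and Sycp3 and Zbtb16 at 0. Of 10 epithelial genes 2 did, with a sum of 10.8 to 25.7 CPM. Smooth muscle markers came to 4 of 9 and a sum of 30.6 to 65.8 CPM, mostly Mylk at 32.2 CPM, with Acta2 at 0.109. In bulk libraries of 1 line, few cells with a marker and little of it in every cell cannot be told apart.

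A few single markers were high while the rest of their list was not. Of the Sertoli list 8 of 17 (47.1%) reached 1 CPM in every library, beside 69.1% of all protein-coding genes. The list summed to 634 to 843 CPM, made up mainly by Clu (277 ± 84.1), Ctsl, Rhox5 (146 ± 36.0) and Tjp1. Of the other Sertoli genes, Fshr, Amh and Cldn11 had 0, 0.450 and 0.300 CPM, and Sox9 had 9.77. Dhh ranked close to Sox9, at 9280 and 9066 of 15409 protein-coding genes by CPM. Sparc made up most of the fibroblast sum of 234 to 427 CPM, at 338 ± 85.1 CPM, while Col1a1 had 1.04 CPM and Lum and Pdgfrb had no count. The endothelial cadherin Cdh5 had 51.3, 86.7, 34.2 and 101 CPM, and Pecam1 14.96 ± 1.52, with Cldn5 and Flt1 at 0. Of 9 endothelial genes 3 (33.3%) reached 1 CPM in every library, beside the same 69.1%. Gata1, a blood and Sertoli cell regulator, had 5.85, 23.3, 4.20 and 21.8 CPM. Libraries 2 and 4 were the high ones for Cdh5 and Gata1, as for Insl3.

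Adrenal and ovarian genes were in part present. Mrap, which brings the corticotropin receptor to the cell surface, had 72.3 ± 19.9 CPM and Wnt4 86.4 ± 27.7. Cyp11b1, the last step to corticosterone, had 1.64 CPM. The aromatase Cyp19a1 had 0.225 CPM, and Fst no count. Of the granulosa and ovary list 3 of 11 genes (27.3%) reached 1 CPM in every library, beside 69.1% of all protein-coding genes. These 3, Amhr2, Wnt4 and Inhba, are on the Leydig or adrenal lists as well.

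Silence in the input can be read only for genes with a row. Every row of the table has at least 1 count in some library of the series, so a gene that was never counted is not analysed here. Of 27061 genes, 3231 (11.9%) had no count in the 4 input libraries, 851 of them protein-coding (5.52% of 15409). Families known from other organs were mostly low, beside 46.0% of all genes and 69.1% of protein-coding genes at 1 CPM in every library. Of 513 olfactory receptor genes, 82 had no count and 75 (14.6%) reached 1 CPM in every library, and of 47 vomeronasal receptors 10 and 2 did. Of 21 keratin genes 9 had no count and 0 reached 1 CPM. MicroRNA loci are a class of RNA and not such a family. Of 233 loci 73 had no count and 6 reached 1 CPM in every library. Those 6 include Mir6236 and Mir6240, which belong to the 10 features that collect ribosomal RNA reads.

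Families of regulators varied. Of 384 Zfp zinc finger genes 305 (79.4%) reached 1 CPM in every library and 7 had no count. Of 21 nuclear receptors 16 (76.2%) did and none was at 0. Of 30 Hox genes 11 (36.7%) did, led by Hoxa10 at 19.7 CPM. These shares stand beside 46.0% of all genes and 69.1% of protein-coding genes. Among 33 cytochrome P450 genes 10 (30.3%) did, and the top 3 by CPM, Cyp11a1, Cyp51 and Cyp17a1, all act on sterols or steroids.

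The spread between libraries was smaller without library 1. The median biological coefficient of variation, edgeR's estimate of spread beyond counting error, was 21.8% over 9861 genes. It was 15.4% without library 1 and 23.4% to 24.2% without any other library. Of 4372 protein-coding genes averaging 50 CPM or more, 136 (3.11%) had a CV above 50%, and 111 of these were highest in library 1. Without library 1, 13 of the 4372 genes exceeded that CV. Of all 9738 genes averaging 10 CPM or more, 688 exceeded it with library 1 and 362 without it, and the median CV was 20.3% with it and 14.9% without.

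The amino acid stress response was the clearest of the groups that set library 1 apart. This programme, led by the transcription factor Atf4, raises amino acid synthesis, uptake and tRNA charging when amino acids run short or proteins misfold. All 28 members averaging 10 CPM or more were highest in library 1, against 36.7% of all genes at that level. This list, like the others, was chosen with earlier results of these data known. Such counts therefore describe the list and cannot be read as a test against that rate. The summed list stood at 10713, 3923, 4489 and 3887 CPM. Atf4 itself had 771, 417, 412 and 398 CPM.

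Its targets differed by more. Trib3, a pseudokinase that dampens Atf4, had 327, 6.58, 22.8 and 8.74 CPM. Ddit3, the factor CHOP, had 271, 34.7, 41.4 and 44.1 CPM. Asns, asparagine synthetase, had 189, 27.5, 36.6 and 34.9 CPM. Library 1 was the high one for each, and libraries 2 to 4 did not reach it.

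Chac1, which breaks down glutathione, had 80.6, 4.78, 10.8 and 3.49 CPM, and the cystine carrier Slc7a11 had 260.2, 86.7, 153 and 97.0. Aldh1l2, a mitochondrial folate enzyme, had the largest CV of the protein-coding genes above 50 CPM (182%), with 321, 4.18, 13.8 and 5.68 CPM. The 10 largest CVs belonged to Aldh1l2, Trib3, Cyb5r1, Cth, Acot2, Ddr2, Ddit3, Gtpbp2, Slc1a5 and Chchd10. All 10 were highest in library 1, at 5.37-fold to 23.3-fold the next highest library.

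Promoters of this group are printed because its members moved together and because the factors Atf4 and C/EBP bind the amino acid response element TGATGNAA. Searched on both strands, TGATGNAA was in 9 of 28 promoters of 24 members (32.1%), against 2.82% of all 15455 promoters. It is in capitals in 4 of them, each 5′ to 3′ on the gene's strand.
Asns, minus strand, chr6:7693160-7693459: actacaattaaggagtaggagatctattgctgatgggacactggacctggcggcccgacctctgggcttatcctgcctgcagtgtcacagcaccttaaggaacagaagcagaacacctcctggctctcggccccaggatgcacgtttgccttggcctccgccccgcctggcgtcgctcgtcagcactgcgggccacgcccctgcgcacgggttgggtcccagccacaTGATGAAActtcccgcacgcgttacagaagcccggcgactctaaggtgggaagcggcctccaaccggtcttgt
Chac1, plus strand, chr2:119350992-119351291: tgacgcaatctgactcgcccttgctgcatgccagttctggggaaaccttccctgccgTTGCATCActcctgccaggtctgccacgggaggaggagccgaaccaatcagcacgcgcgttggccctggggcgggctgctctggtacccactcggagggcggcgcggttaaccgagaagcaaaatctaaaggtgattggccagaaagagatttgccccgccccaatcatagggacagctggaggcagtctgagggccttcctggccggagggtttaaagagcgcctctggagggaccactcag
Slc7a11, minus strand, chr3:50443564-50443863: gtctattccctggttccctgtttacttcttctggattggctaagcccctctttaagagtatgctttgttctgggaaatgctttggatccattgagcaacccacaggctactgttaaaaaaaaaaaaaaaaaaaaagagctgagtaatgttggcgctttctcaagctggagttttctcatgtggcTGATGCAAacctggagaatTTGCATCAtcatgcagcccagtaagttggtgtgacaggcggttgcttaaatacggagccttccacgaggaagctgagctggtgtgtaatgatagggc
Trib3, minus strand, chr2:152344011-152344310: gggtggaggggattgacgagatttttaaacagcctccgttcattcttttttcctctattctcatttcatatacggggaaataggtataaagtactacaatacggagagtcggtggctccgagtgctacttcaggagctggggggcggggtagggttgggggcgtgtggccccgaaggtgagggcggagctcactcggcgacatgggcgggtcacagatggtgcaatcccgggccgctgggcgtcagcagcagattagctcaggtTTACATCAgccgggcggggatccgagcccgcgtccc
Slc7a11 holds the letters at 2 places, 66 and 47 bases before the start and on opposite strands. In Asns they begin 23 bases and in Chac1 193 bases before the start, and in Trib3 15 bases after it. The promoters of Ddit3 and Atf4 hold no match in this window. The matches were looked for after the levels had been seen, and they are a description.

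**Figure D3:**
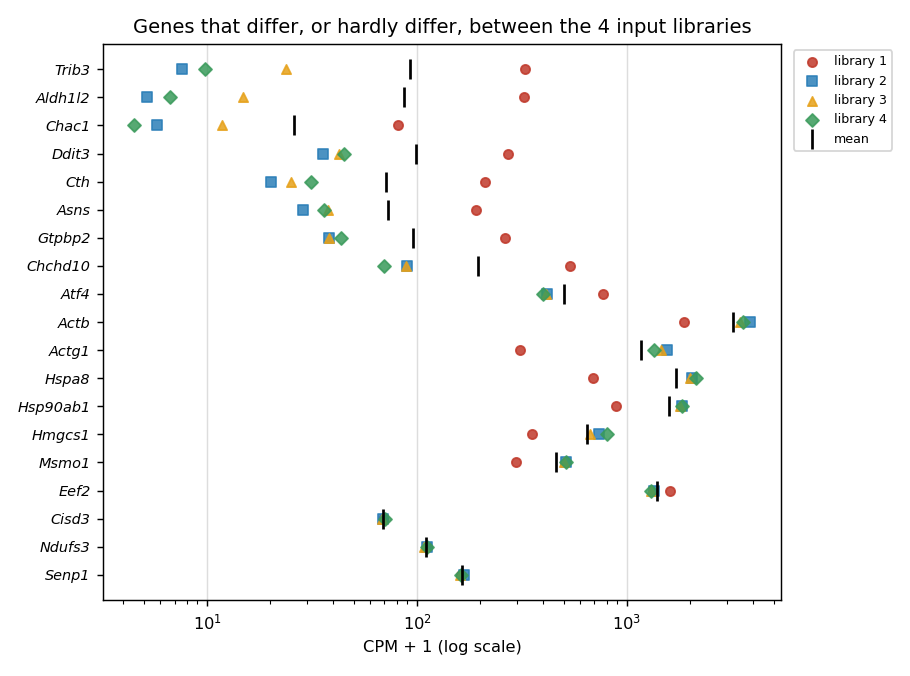
Level of 19 genes (rows) in CPM + 1 on a log axis, with 1 point for each of the 4 input libraries and a bar for the mean. Library 1 lies far right of the others for Trib3 to Atf4, left of them for Actb to Msmo1, and on them for Cisd3, Ndufs3 and Senp1.

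Other groups were low in library 1, where 30.04% of all genes averaging 10 CPM or more were lowest and 36.7% were highest. Of 24 genes for cytoskeleton and housekeeping 17 were lowest there, with Actg1 at 309 CPM against 1346 to 1550 and the filament protein Vim at 71.6 against 295 to 439. Of 14 heat shock genes 10 were lowest there, and the inducible Hspa1b had 86.0, 193, 271 and 228 CPM. Of 18 immediate early genes with at least 10 CPM 13 were lowest in library 1 and 10 highest in library 4. Ribosomal protein genes were highest in library 1 for 55 of 77, with a sum of 27942 CPM against 21663 to 22516. The steroid route summed to 1767, 2725, 2735 and 3057 CPM, lowest in library 1. The part of RNA handling or of culture in these differences was not tested, and the labels give no date or batch for the libraries.

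**Figure D4:**
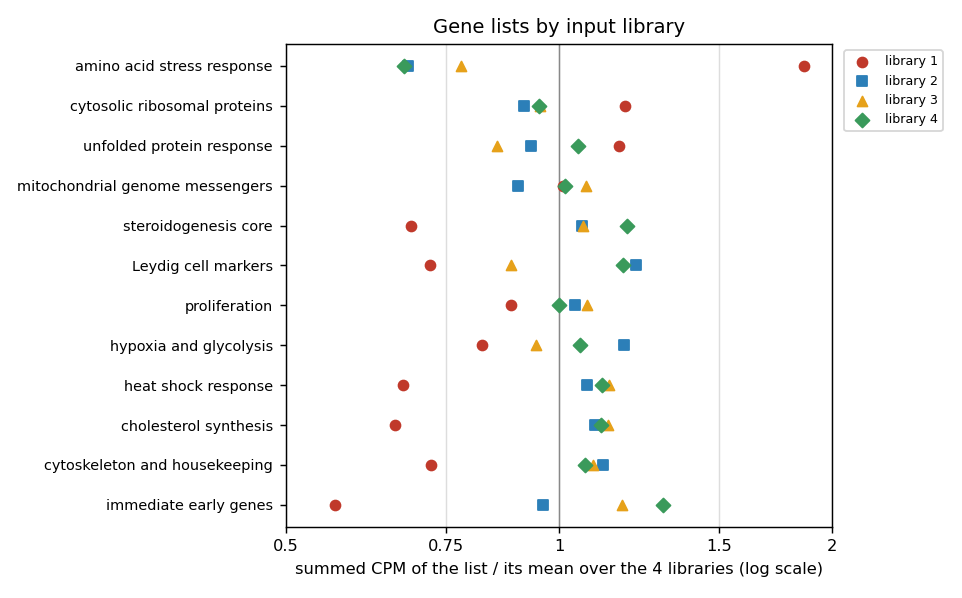
Summed CPM of 12 gene lists (rows) in each of the 4 input libraries, divided by the list's mean over the libraries, on a log axis. Library 1 is at 1.86 for the amino acid stress response and at 0.567 to 0.723 for the immediate early, cholesterol synthesis, heat shock, steroid, Leydig and cytoskeleton lists, while all 4 points lie near 1 for mitochondrial messengers.

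Some genes hardly differed between the libraries. The smallest CVs among protein-coding genes above 50 CPM were those of Cisd3 (1.09%), Plekhb2 (1.28%), Txndc12 (1.36%), Ndufs3 (1.501%), Myl12a (1.55%) and Senp1 (1.57%). Cisd3, an iron-sulphur protein of mitochondria, had 68.0, 68.1, 67.2 and 69.0 CPM, and Ndufs3, a subunit of respiratory complex I, 111, 110.0, 107 and 111. Library 1 did not stand apart for these 6.

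Levels in the input went with the CpG content of promoters. CpG is the base pair step at which mammalian DNA is methylated, and promoters rich in it are typical of genes used in most cells. Promoters of protein-coding genes with no count in the input had a median of 6 CpG in 300 bases (quartiles 2 and 15). The median was 6 for genes under 1 CPM, 12 from 1 to under 10 CPM, 21 from 10 to under 100 CPM and 24 (quartiles 15 and 32) at 100 CPM or more. The TATA letters TATAAA were in 14.8% of promoters of genes with no count and in 7.99% of those at 100 CPM or more.

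**Figure D5:**
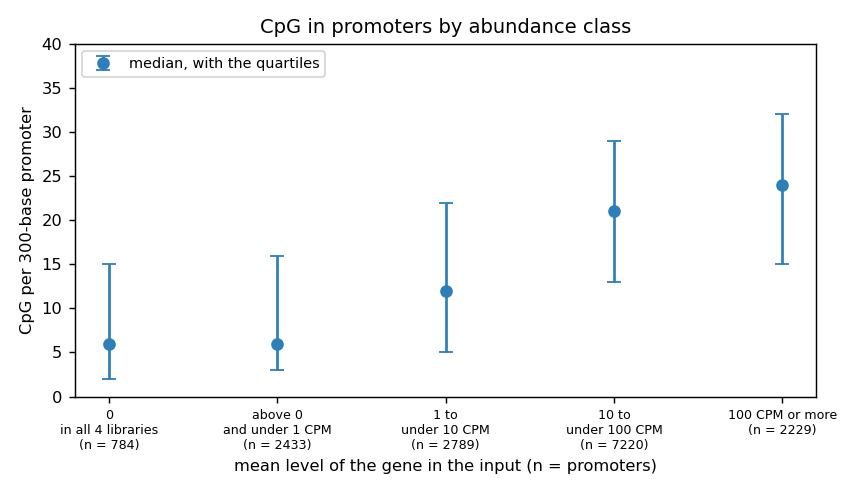
Number of CpG in 300-base promoters (y axis; point, median; bar, quartiles) for protein-coding genes in 5 classes of mean level in the input (x axis). The median climbs from 6 to 24 over the classes, and the quartile bars of neighbouring classes overlap.

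The steroid route spanned this whole range. Its 16 promoters had a median of 16.5 CpG, and Leydig cell markers a median of 5. Hsd3b1, specific to steroid-making tissue, and Por, used in most cells, are printed as a promoter with few and a promoter with many, with each CG in capitals, 5′ to 3′ on the gene's strand.
Hsd3b1, minus strand, chr3:98859745-98860044: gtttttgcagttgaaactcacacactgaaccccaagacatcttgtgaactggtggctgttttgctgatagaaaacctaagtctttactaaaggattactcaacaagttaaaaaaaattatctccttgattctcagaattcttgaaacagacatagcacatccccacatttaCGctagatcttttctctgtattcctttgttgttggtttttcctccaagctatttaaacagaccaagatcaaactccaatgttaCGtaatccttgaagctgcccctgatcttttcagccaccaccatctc
Por, plus strand, chr5:135688895-135689194: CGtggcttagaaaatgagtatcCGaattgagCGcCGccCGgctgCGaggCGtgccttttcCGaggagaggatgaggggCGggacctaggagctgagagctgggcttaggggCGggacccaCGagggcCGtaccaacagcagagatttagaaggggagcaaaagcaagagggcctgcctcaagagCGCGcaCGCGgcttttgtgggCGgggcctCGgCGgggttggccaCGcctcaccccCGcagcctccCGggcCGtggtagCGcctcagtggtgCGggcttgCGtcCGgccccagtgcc
The first holds 2 CpG and the second 27, while the genes stood at 113 ± 33.8 and 416 ± 58.1 CPM. Cyp11a1, at 388 CPM, has 1 CpG in the promoter printed above and 7, with no AGGTCA, in its other promoter of the table, at the annotated start of the gene (chr9:57997774-57998073).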

How the data were processed

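RNA of untreated MA-10 cells was measured by RNA sequencing in 4 input libraries. The deposited table holds whole-number estimated counts (expected counts) per gene, and rounding left them as they were. The submitters' processing notes name kallisto, DESeq2, GRCm38 and mm10 without roles, and the sources used here do not say how transcript values became gene values. In each input library values of 2 outnumbered values of 1, which is what double counting of read pairs would give, and this was not resolved. Counting limits would then be too narrow, and they cover counting error only.

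Counts were divided by the library's counts outside 10 features that collect ribosomal RNA reads and scaled to 1000000 (CPM). With 1 group there was no comparison and no test: means, SDs and CVs over the 4 libraries were computed (Python 3.11.15, pandas 2.3.3). The biological coefficient of variation came from edgeR 4.0.16 (R 4.3.3; intercept only, TMM, filterByExpr), tested on simulated counts. DESeq2 1.42.0 size factors, other denominators, other thresholds and leaving out each library were alternatives. Symbols were matched for 27004 of 27071 identifiers, and RefSeq (GRCm38.p6) gave coordinates, classes and promoters. Spliced lengths were not used here.

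The text draws on the 15 nuclear protein-coding genes and 12 noncoding features with the highest mean CPM, the mitochondrial messengers, the steroid, regulator and Leydig lists, the top 4 and any silent members of other lists, the top 3 of each family, and the 10 largest and 6 smallest CVs among protein-coding genes averaging 50 CPM or more. Unnamed models and pseudogenes were skipped among protein-coding genes. Other genes named were chosen after their values were seen. Some genes are not reported here. Members and lists were chosen with earlier results of these data known.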

Additional observations from a re-analysis of the deposited data

Results flagged for a closer look

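Across 172 values of the text (genes and gene lists averaging 10 CPM or more, library measures and class shares), Dixon's ratio set 1 of the 4 libraries apart from the other 3 in 40. Chance marks about 1 in 20 values, but many of these genes were chosen for their large spread or after their values were seen, so the count cannot be read against that rate. Library 1 was the one apart in 32 of them and library 3 in the other 8.

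Library 1 was far above the rest for genes of the amino acid stress response. Its levels there were 327 CPM for Trib3, 321 for Aldh1l2, 271 for Ddit3, 771 for Atf4, 189 for Asns, 80.6 for Chac1 and 209 for Cth, and 10713 for the summed list. The same held for Chchd10 (534 CPM), Ddr2 (400.2), Cyb5r1 (332), Slc1a5 (322), Acot2 (289) and Gtpbp2 (261), which code for a mitochondrial protein, a collagen receptor, a reductase, a glutamine carrier, an acyl-CoA thioesterase and a GTP-binding protein. Also high there were Akr1b7 (46.4 CPM), Nr2f2 (28.4), the germ cell helicase Ddx4 (15.8) and Eef2 (1606). Cytosolic ribosomal proteins summed to 27942 CPM, or 2.79% of counts.

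Library 1 was below the rest for genes of sterol supply and of folding and structure, by a small margin for Eef1a1 (4475 to 4592 CPM in the others) and Abca1 (791 to 804). Its levels were 297 CPM for Msmo1, 655 for Abca1 and 3448 for the summed list of cholesterol synthesis. They were 689 for Hspa8, 889 for Hsp90ab1 and 4505 for the heat shock list, and 309 for Actg1, 3834 for Eef1a1 and 17475 for the cytoskeleton and housekeeping list. Por (329 CPM), Nr0b1 (32.9) and the noncoding Rian (446) were low there as well.

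Library 3 was apart for Gm19220 (49655 CPM), Gm26822 (15509), Grip2 (2838), mt-Nd2 (887) and Ftl1 (1588), all highest there. Pseudogenes held 6.48% of its counts, other protein-coding genes 73.6%, and long noncoding RNAs with microRNA loci 2.05%.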

How the results depend on the processing

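With all deposited counts as denominator, the share of the 100 most abundant genes was 17.7% and that of mitochondrial messengers 1.11%, since ribosomal RNA reads then count too, and 355 of 714 gene levels moved by more than 1 SD. Leaving out the 10 largest other features, an alternative chosen after seeing the data, gave 1.85% for mitochondrial messengers and moved 185 levels. TMM and DESeq2 scaling moved none of these levels, but changed the CV of 11 and 13 of 405 genes by more than 1.5 times. Genes with at most 2 counts in each library numbered 8604, against 3231 with none, which ranged from 4218 to 4943 without 1 library. Genes at 1 CPM or more in all libraries ranged from 9861 (at 5 CPM) to 15875 (1 CPM on average). The median biological coefficient of variation was 59.6% with no filter on low counts and 15.4% to 24.2% without 1 library. Leaving out library 1 changed the CV of 218 of 405 genes by more than 1.5 times. Depth limits genes with no count to under 0.382 CPM. Levels per length of spliced genes could not be run. No paired analysis was possible because there is only 1 group.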

Other observations

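Psmb7, a catalytic subunit of the proteasome, lies next to Nr5a1 on chromosome 2 and had 1007, 1225, 1160 and 1224 CPM. The median over 39 proteasome subunits was 108 CPM, and the next highest subunit, Psmd2, had 405 CPM. Other genes within 1000000 bases of Nr5a1 had 4.97 CPM (Wdr38) to 493 CPM (Rpl35), apart from Crb2 and Olfml2a, which had 2.49 and 3.56 CPM. Nr6a1, the other nuclear receptor of the region, had 131 ± 41.0 CPM, and Lhx2, a homeobox gene, had 137 ± 28.0 CPM.

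The urokinase gene Plau had 3.60, 40.1, 128 and 89.1 CPM, in the same order of libraries as Nr4a1. The unnamed features Gm42427 and AA474408 reached 15848 ± 3321 and 16439 ± 4219 CPM. With 8 more features they made up the 10 that each held at least 0.5% of the pooled counts outside the ribosomal RNA set. In all, 23 features of at least 10 CPM, in 8 sets, had the same count as another feature in every library, so their own levels are not known.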
